A study of Mus musculus with 4 samples.

Results

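The Arid1b noncoding transcript (ENSMUST00000146703) was measured by 1 probe, taken as the only entry with the symbol Arid1b in the study's lists of changed lncRNAs. It is 1 of 60930 features of the array that are not controls, and 1 of 3937 distinct features that the lists used here name. The transcript entered those lists through its rise at 24 h, so it was chosen by these same values, and every change given below is a description without a test. RAW264.7 cells, a mouse macrophage line, were given RANKL at 100 ng/mL together with M-CSF at 50 ng/mL, and RNA was hybridised to 1 array at each of 0, 24, 72 and 96 h. The labels call these stages monocyte (0 h), pre-osteoclast (24 h), mature osteoclast (72 h) and activated osteoclast (96 h). A transformed line stands in for primary bone marrow macrophages, no parallel culture without cytokines was analysed at the later times, and the arrays hold the RNA of all cells of a dish. In such bulk RNA a change in the number of expressing cells and a change in RNA per cell cannot be told apart. The arrays at 0 and 72 h lay on slide 1 and those at 24 and 96 h on slide 2. Defining markers of osteoclasts and macrophages were not analysed here, because the tables used here do not pair mRNA probes with gene names.

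ARID1B, also called BAF250B, is the large DNA-binding subunit of BAF, the mammalian SWI/SNF complex, which uses ATP to slide or evict nucleosomes. It occupies the same position as ARID1A, so that a BAF complex holds one of these subunits or the other. RANKL and M-CSF drive macrophages to fuse into osteoclasts, the cells that resorb bone, in a program led by the transcription factor NFATc1. The listed Arid1b transcript is annotated as noncoding although it comes from the protein-coding locus, and its class, exon sense-overlapping, means that it shares exon sequence with the gene on the same strand.

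The lists place the transcript on the + strand at chr17:5040577-5127640 (GRCm38), with an RNA of 1083 bases. In RefSeq's annotation of GRCm38.p6 the Arid1b gene covers chr17:4994297-5347656, so the transcript starts 46.3 kb inside the gene, ends 220 kb before its end, and spans 24.6% of its length. The build was checked by the listed coordinates of all transcripts whose symbol RefSeq gives on the same chromosome, of which 1579 of 1596 overlapped the RefSeq gene and 973 had an end within 100 bases of the same end of that gene. The probe lies at the 3′ end of the transcript, at listed positions 5127573 to 5127640, which span 68 bases for a probe of 60 bases. Its sequence is shown because the whole finding rests on these bases, beside the probes of the other BAF subunit loci in the lists. Capitals mark the longest stretch that the Arid1b probe shares, on either strand, with any of the other 3936 listed probes.
Arid1b: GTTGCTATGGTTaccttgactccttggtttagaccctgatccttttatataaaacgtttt
Smarcb1: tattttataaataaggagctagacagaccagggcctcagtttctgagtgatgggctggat
Phf10: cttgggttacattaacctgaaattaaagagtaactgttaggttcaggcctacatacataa
The shared stretch was 12 bases long, so no other listed probe carries a large part of the Arid1b probe. G and C made up 36.7% of the Arid1b probe, and 22.1% of listed probes had a lower share. Whether the protein-coding mRNA of Arid1b carries the same 60 bases was not tested, since no genome or transcript sequence was used, and the signal is therefore that of RNA holding this 3′ end. The lists hold no feature name for the Arid1b mRNA, and a circular RNA of Arid1b measured on a separate array was not analysed here.

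The Arid1b transcript stood at the same level at 0, 72 and 96 h and was high at 24 h alone. In the order 0, 24, 72 and 96 h its quantile-normalized log2 signal read 9.18, 13.96, 9.24 and 9.25. The probe was well above background, the scanner software's call that a spot is brighter than the noise around it, on each of the 4 arrays, so none of these values is a bound. The authors' own table gave 9.18, 13.96, 9.24 and 9.25 in the same order. Before normalization the log2 signals were 8.97, 13.93, 9.12 and 9.59, and the processed intensities behind them were 502, 15659, 558 and 768. The order of a single high value at 24 h was thus present before normalization.

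**Figure D1:**
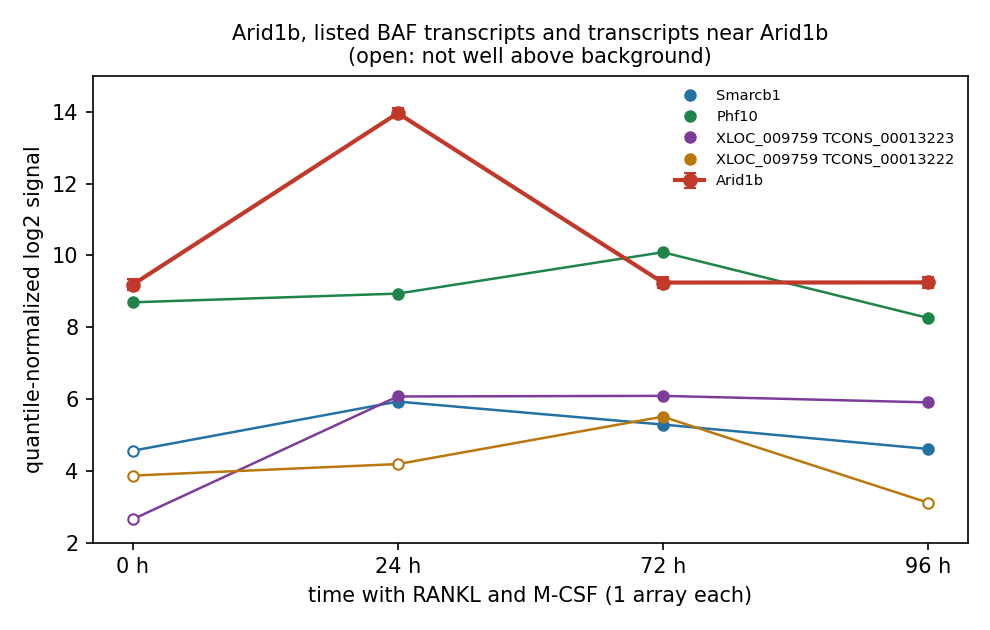
Quantile-normalized log2 signal (y axis) on the 4 arrays (x axis) for Arid1b in red, the other listed transcripts of BAF subunit loci and the listed transcripts near Arid1b. Error bars on Arid1b are the image software's error of the single spot, open points were not well above background, and Arid1b reaches 13.96 at 24 h while its other 3 values lie between 9.18 and 9.25.

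At 24 h against 0 h the log2 change was 4.78, a 27.4-fold higher signal. Among 39355 features that were well above background on at least 1 of these arrays it was the 3rd largest rise, and 3.37% of those features rose at least 2-fold. Since the lists were drawn from this contrast, its place there carries no weight of its own. Of 34454 features well above background on both arrays, 1 other rose more. From 24 to 72 h the log2 signal fell by 4.72, to a 26.3-fold lower intensity and the 5th largest fall of 38991 features, of which 8.16% fell at least 2-fold. At 96 h against 24 h, the contrast within slide 2, the change was -4.71, a 26.3-fold lower signal and the 19th largest fall of 41467 features, of which 6.5% fell at least 2-fold. The rise and the falls all share the one 24 h array, so they are not separate observations.

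After quantile normalization the other 3 arrays agreed closely. At 72 h against 0 h, the contrast within slide 1, the log2 change was 0.06, where 9.61% of the 39609 features entering that comparison were past 2-fold in either direction. At 96 h against 0 h it was 0.06 as well, with 14.1% of 42005 features past 2-fold, and at 96 h against 72 h it was below 0.01 in size, with 23.8% of 42014 past 2-fold. The 3 values averaged 9.22 ± 0.03 (SD over the 0, 72 and 96 h arrays, which are different time points and not replicates). Their range of 0.06 was smaller than that of nearly all features. Of 32725 features well above background on all 4 arrays, 0.782% had a smaller range over these times, and the median range was 0.66. That rank was taken on quantile-normalized values alone, and without normalization the change at 96 h against 0 h was 0.61. The software's error of the Arid1b spot was between 10% and 10.1% of its signal on every array, which puts the error of a difference between arrays at 0.20 on the log2 scale. The quantile-normalized values at 0, 72 and 96 h differed by less than that error, and the 24 h value differed from them by more. The error kept near 10% of the signal at intensities from 502 to 15659. It is therefore a share of the signal rather than a spread measured on this spot, and it does not cover the culture.

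**Figure D2:**
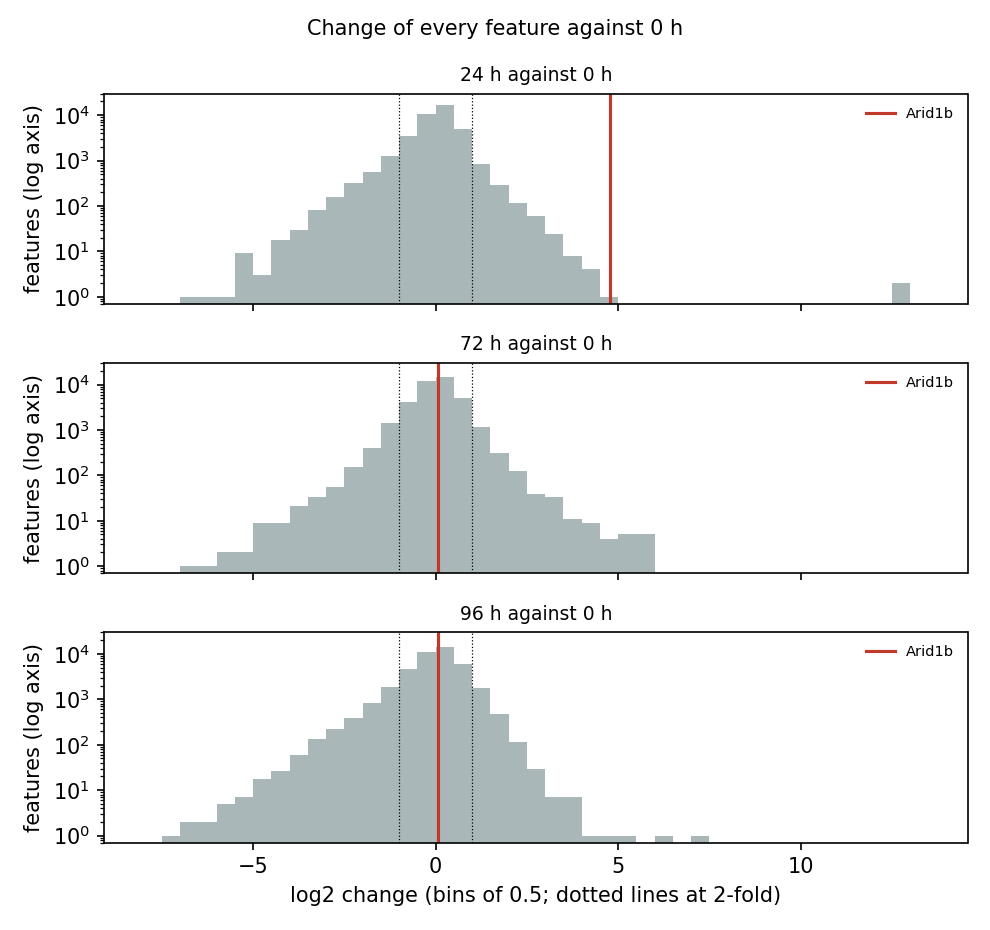
Number of features (log y axis) by log2 change in bins of 0.5 (x axis) at 24, 72 and 96 h against 0 h, with Arid1b as the red line and 2-fold as dotted lines. Arid1b lies at 4.78 in the right tail at 24 h and at 0.06, in the middle of the distribution, at 72 and 96 h.

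With 1 array a time point, the only repeats were spots of the same array. The 30 features printed 20 times each gave median SDs of their log2 signals, in the order of time, of 0.06, 0.07, 0.06 and 0.05, over the 15 or 16 of them that were well above background. This is spread within an array and says nothing of cultures. The Arid1b probe itself was printed once, so that each of its values is 1 spot.

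The 24 h spot of Arid1b differed from its spots on the other arrays in more than brightness. Its width, as the image software measured it, was 18.5 at 24 h, against 25.8, 27.5 and 27.1 at 0, 72 and 96 h. On the 24 h array 0.283% of the spots were narrower, and the middle of the distribution lay at 25.1. Among the 2514 spots of that array within 1 log2 unit of its signal, the Arid1b spot had the smallest width, which 1 other spot also reached. The SD of the pixels in its local background was 23.1 at 24 h, against 11.8, 17.3 and 10.0 at 0, 72 and 96 h. On the 24 h array 0.104% of spots had a higher one. On the 0, 72 and 96 h arrays, 21.4%, 1.19% and 19.6% of spots had a higher one than Arid1b, so the 72 h value was also high for its array. The software marked this local background both as non-uniform and as an outlier at 24 h, marks that 58 of 61500 spots of that array carried together, and set neither mark at the other times. The spot itself was marked neither as an outlier nor as saturated on any array. Its median pixel signal was 570 times the median background at 24 h, and 15.6, 17.9 and 33.1 times at 0, 72 and 96 h. The local background stayed low in level, with medians of 34, 29, 34 and 25 in the order of time against the 24 h median signal of 16525.

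**Figure D3:**
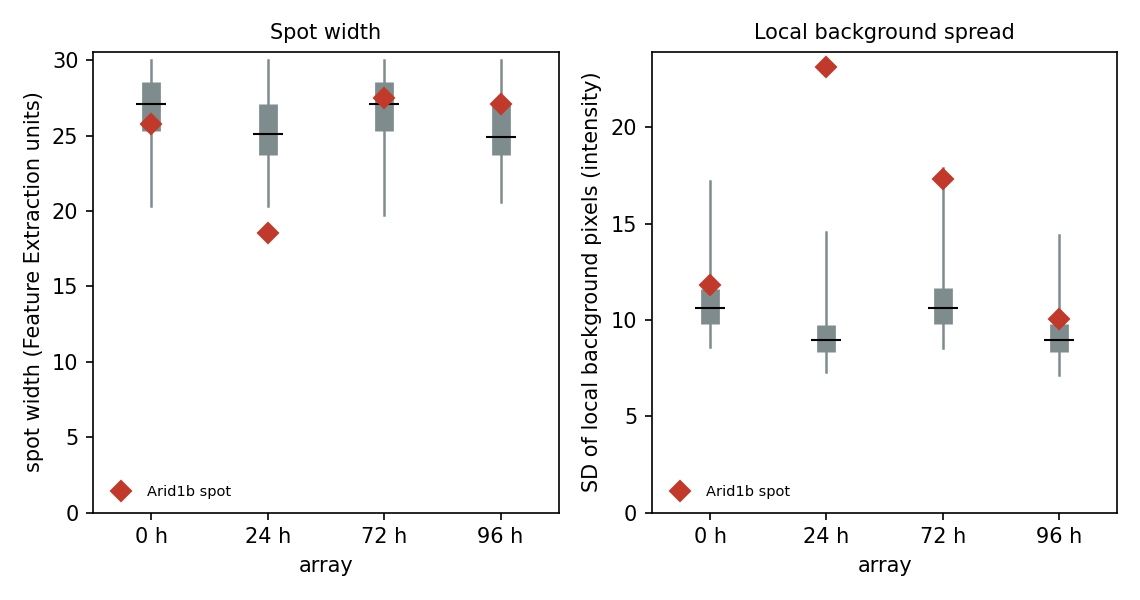
Spot width (left, y axis in the image software's units) and SD of local background pixels (right, y axis in intensity) on each array (x axis), with the Arid1b spot as a red diamond. Thick bars span the 25th to 75th percentile of all spots that are not controls, thin lines the 1st to 99th and black ticks the median, and the 24 h diamond lies outside the thin line in both panels, at 18.5 and 23.1.

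Rises past 2-fold at 24 h were near the share of all entering features for outlier backgrounds and more frequent for narrow spots. Of 57 features printed once whose 24 h background was marked as non-uniform, 42 entered the comparison with 0 h, with a median log2 change of 0.04. Of these 42, 2 rose at least 2-fold (4.76%), Arid1b among them, and 8 fell at least 2-fold. Over all 39355 entering features, 2407 fell at least 2-fold. Without Arid1b the largest change among these non-uniform ones was 1.08. Of 1110 entering features with an outlier background, 3.78% rose at least 2-fold, near the 3.37% of all entering features, and the largest rise among them was 12.89, above that of Arid1b. Of 62 entering features with a 24 h spot as narrow as that of Arid1b, 22 rose at least 2-fold (35.5%) and 3 fell. Of the 38 of these that were well above background at both times, 9 rose (23.7%), Arid1b among them, and 2 fell. Among all features well above background on both arrays, 7.78% were past 2-fold in either direction. That share counts falls as well as rises, so it is not a like figure for the 23.7% that rose. Among features printed once, 56 had both marks and 213 had such a narrow spot, and Arid1b alone had all of these. The traits and the width limit were taken from the Arid1b spot itself, so this only describes that spot. The part of spot shape and local background in the 24 h value of Arid1b was not tested.

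The spots around it on the slide were not raised with it. Of the 8 adjacent spots, 4 held features printed once that entered the comparison, and their log2 changes at 24 h ran from -0.96 to 0.71. In the block of 5 rows by 5 columns around Arid1b, 10 such features had a median log2 change of 0.08, and none rose 2-fold. The background marks, however, were shared: 8 of the 25 spots of this block had an outlier background at 24 h, against 0 at 0 h, 1 at 72 h and 0 at 96 h, where 2.63% of spots carried that mark over the whole 24 h array. The highest SD of local background pixels in the block reached 30.5 at 24 h, and 13.6, 21.7 and 11.5 on the 0, 72 and 96 h arrays.

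**Figure D4:**
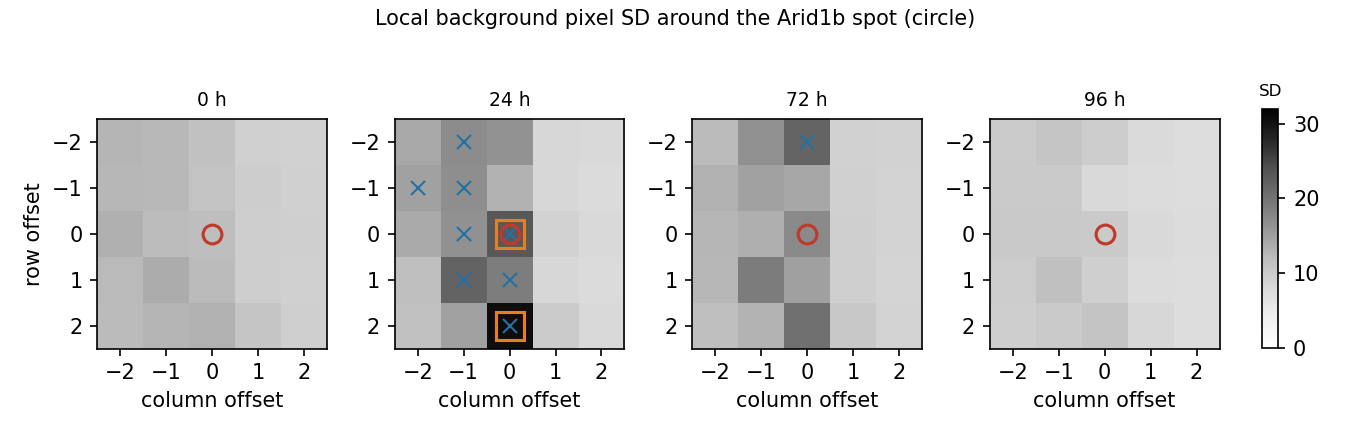
SD of local background pixels (grey scale, intensity) for the 25 spots around Arid1b by row and column offset on the 4 arrays, with Arid1b circled, outlier backgrounds crossed and non-uniform backgrounds boxed. At 24 h, 8 spots carry the outlier mark and 2 the non-uniform mark, the circled spot having both, and no more than 1 spot carries a mark at any other time.

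Some features were high on a single array. At 24 h, 62 of the 35858 features well above background there were at least 16-fold above each of the other 3 arrays, and 1 of them, Arid1b, was well above background on all 4. The same count gave 31, 33 and 38 features for the 0, 72 and 96 h arrays. Of features well above background on all 4 arrays, Arid1b was the only one at least 8-fold above every other array at 24 h, where 5 features were so at 0 h, 20 at 72 h and 3 at 96 h. It exceeded its highest other value by 4.71 on the log2 scale, and the next feature, Gm17098, did so by 2.71. Of the 7 such features at least 4-fold above every other array at 24 h, 3 had an outlier background there, against 5 of 13 at 0 h, 0 of 63 at 72 h and 1 of 12 at 96 h. That mark was carried by 1.08%, 2.63%, 0.894% and 1.53% of all spots that are not controls on the 0, 24, 72 and 96 h arrays.

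The list of 31 symbols of BAF subunits, older symbols included, had a noncoding transcript in the study's lists for 3 of them. Over the whole array the lists used here, held in part, name 3937 of 60930 features. That is a share of features and not of genes, and some genes stand under 2 symbols, so the count of 3 is not read as many or few. Smarcb1 codes the core subunit that helps grip the nucleosome, and its noncoding transcript (chr10:75896774-75916572) had log2 signals of 4.56, 5.93, 5.29 and 4.61 at 0, 24, 72 and 96 h. It was not well above background at 0 h, so its 24 h signal was at least 2.17-fold higher. Phf10 codes a PHD-finger subunit of PBAF, the related complex that holds ARID2 in place of ARID1B. Its transcript (chr17:14947737-14961273) was well above background on all 4 arrays, with log2 signals of 8.69, 8.93, 10.09 and 8.26. The highest value of Phf10 fell at 72 h, a log2 change of 1.40 or 2.63-fold against 0 h on the same slide, while at 24 h its change was 0.24. Thus both Arid1b and Smarcb1 were highest at 24 h and Phf10 was not, and the difference between them was not tested with 1 array each. All 3 are seen here because lists of changed lncRNAs from these same arrays hold them, so their peak times carry no weight of their own. The Smarcb1 signals of 5.93 at 24 h and 5.29 at 72 h also lay near the lowest signals well above background there, 5.17 and 5.16. No feature is named here for the mRNAs of the complex.

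Within 200 kb of the Arid1b transcript the lists name 2 further transcripts, both intergenic, both of the locus XLOC_009759 and both upstream, at distances of 127 and 129 kb. TCONS_00013223 (chr17:4911644-4913356) had log2 signals of 2.65, 6.07, 6.09 and 5.90 in the order of time. It was not well above background at 0 h, and its signal was at least 2.40, 2.43 and 2.14-fold higher at 24, 72 and 96 h. TCONS_00013222 (chr17:4907959-4911840) was well above background at 72 h only, with log2 signals of 3.87, 4.19, 5.51 and 3.11. Neither shared the shape of Arid1b, since one stayed up after 24 h and the other passed background at 72 h alone.

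By the distance between the 4 log2 signals, each centred on its own mean, the listed transcripts most like Arid1b among 1591 named ones well above background throughout were Gm17098, Gm15523, Mill2, Atpaf2 and Ctnnal1. Likeness over 4 arrays is a description and carries no test. Gm17098, a natural antisense transcript on chromosome 9, was nearest at a distance of 1.72, with log2 signals of 6.10, 8.81, 6.07 and 5.99. Gm15523, antisense within an intron on chromosome 12, followed at 1.80 with 5.28, 8.25, 5.60 and 5.80. A transcript of Mill2, which codes a protein related to MHC class I, came at 1.85 with 5.71, 8.53, 6.14 and 5.85. All of these peaked at 24 h, by less than Arid1b. A transcript of Atpaf2, which codes an assembly factor of the mitochondrial ATP synthase, stood at 2.10 with 5.71, 8.28, 6.35 and 4.89. That of Ctnnal1, which codes alpha-catulin, was at 2.22 with 5.59, 7.86, 6.03 and 4.96. Gm17098 and Mill2 also had an outlier background at 24 h, and their spots are diagonal neighbours by grid index, at row 337 and column 123 and at row 338 and column 122. The Mill2 spot had a width of 17.9, and the widths of Gm17098 and Gm15523 were 21.7 and 19.1. Atpaf2 and Ctnnal1 had no background mark and widths of 25.8 and 26.2.

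**Figure D5:**
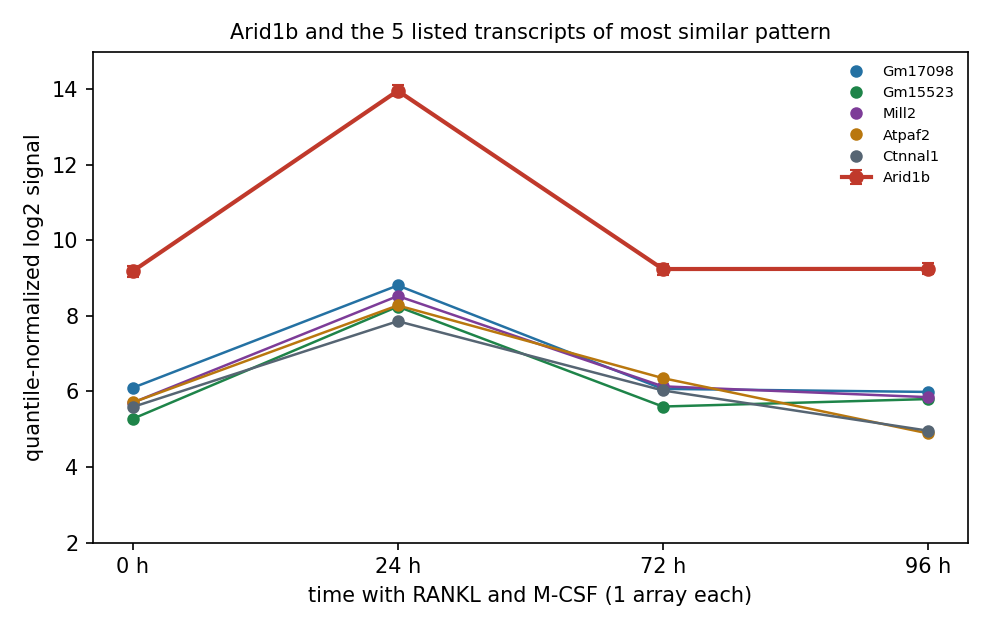
Quantile-normalized log2 signal (y axis) on the 4 arrays (x axis) for Arid1b in red, with the image software's spot error, and for the 5 listed transcripts with the most similar centred pattern. Each is highest at 24 h, the 5 others between 7.86 and 8.81 there.

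The named transcripts next to Arid1b in the order of rises at 24 h had other time courses. Gm12665, an intergenic transcript on chromosome 11 and the one above it, had a log2 signal of 17.46 at 24 h and was not well above background on any other array, where it read 2.62, 2.64 and 2.66. Its 24 h signal was at least 6441-fold higher than at 0 h, from 1 array. A noncoding transcript of Nupr1, a gene that codes a stress-induced chromatin protein, was next below, with log2 signals of 2.65, 8.94, 9.67 and 4.97. Its 0 h signal was not well above background, which makes the 24 h rise at least 17.5-fold and that of 72 h at least 29.1-fold. Thus Nupr1 stayed up to 72 h, Gm12665 was seen at 24 h only, and Arid1b stood at 72 h where it had stood at 0 h.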

How the data were processed

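RNA of 4 RAW264.7 cultures was hybridised by the authors to Arraystar Mouse LncRNA V3.0 arrays, 1 per time point as GEO's labels give it. The deposited scanner files (Agilent Feature Extraction, 11.0.1.1 in their headers) hold intensities: the processed signal, background-subtracted and detrended by the authors' software, median signals, local backgrounds and marks of each spot. A second deposited file, the authors' log2 table of 60804 probes, was quantile normalized by them in GeneSpring.

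Controls and outlier spots were dropped, the processed signals were put on the log2 scale and averaged over a probe's spots, and quantile normalization followed (Python 3.11.15, pandas 2.3.3), which gave values within 0.03 of the authors' log2 values. A feature entered a comparison when well above background on at least 1 of its arrays, the other value being raised to the lowest signal well above background there (log2 values of 4.81, 5.17, 5.16 and 4.41 in the order of time). With 1 array a group no p-value could be given, and precision is limited by having so few arrays. Cyclic loess and normexp used limma 3.58.1 in R 4.3.3. The functions were tested on simulated data.

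Names, sequences and coordinates come from the study's supplementary lists, held in part, and their fold changes were not used. Named were Arid1b, listed transcripts of BAF subunit genes, those within 200 kb, the 5 of most similar pattern and the neighbours by rise at 24 h. The transcript, lists and rules were chosen with earlier results of these data known. Alternatives were other scalings, background corrections, filters, fold limits and the authors' values.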

Additional observations from a re-analysis of the deposited data

How the results depend on the processing

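The rise of the Arid1b transcript at 24 h against 0 h lay between 4.64 and 4.96 on the log2 scale under 8 alternatives, and its fall by 72 h between -4.81 and -4.62. Leaving out spots with a marked local background, an alternative chosen after seeing the data like normexp on the median signal, left Arid1b with no 24 h value, and so with none of the 3 contrasts that use that array. Without normalization the changes at 96 h moved, to 0.61 against 0 h, -4.35 against 24 h and 0.46 against 72 h. At 72 h against 0 h the alternatives gave -0.04 to 0.15. By rise at 24 h Arid1b ranked 1 among features well above background on all 4 arrays and 5 in the authors' values, and by fall at 96 h against 24 h it ranked 11 on all 4 arrays. The share of features past the limit, 9.48% at 24 h, 9.61% at 72 h, 14.1% at 96 h, each against 0 h, and 11.8% at 96 h against 24 h for 2-fold in either direction, became 24.5%, 26.3%, 33.2% and 28.0% at 1.5-fold, and 2.11%, 1.32%, 2.44% and 2.21% at 4-fold, by construction. Of the 5 transcripts of most similar pattern, 3 were kept when ranked by the rise at 24 h over the highest other array and 0 when features well above background on at least 1 array were let in. The planned normexp on the mean signal was not run, because the files used here hold the median signal. No paired analysis was possible because each time point has 1 array. Each value of Arid1b is 1 spot on 1 array, and array and time cannot be told apart at 24 h. The 96 h array of the same slide read 9.25, and the part of slide or array in the 24 h value was not tested.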
